A study of Mus musculus with 3 samples.

Results

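Collagens, laminins and matrix glycoproteins were examined as a group in RNA-seq of 3 tumour cell lines of the mouse. Members were chosen by gene symbol alone: every gene named as a collagen chain or a laminin chain, together with 19 listed genes for glycoproteins, basement membrane proteins, proteoglycans and lysyl oxidases. The rule found 74 genes among the 15529 named genes of the tables, of which 44 encode collagen chains and 11 encode laminin chains. B16-F1 is a skin melanoma line of strain C57BL/6J, Cloudman S91 is a skin melanoma line of strain DBA, and 4T1 is a mammary carcinoma line of strain BALB/cfC3H. The medium was DMEM for both melanoma lines and RPMI for 4T1, with 10% fetal bovine serum, and no treatment is named. Tumour type, strain and medium therefore cannot be told apart between a melanoma line and 4T1. Each line is represented by 1 library, so no difference given here has a replicate check, and every interval covers counting error only.

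The extracellular matrix is built by secreted proteins. Collagens share a triple helix made of 3 chains, and they form fibrils, sheet-like networks or anchoring structures. Laminins are trimers of an alpha, a beta and a gamma chain, and with collagen IV, nidogens and the proteoglycan perlecan they make up the basement membrane, the thin sheet that lies under epithelia and around nerves and vessels. Melanocytes rest on this sheet in the skin, and mammary epithelium makes much of its own.

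The B16-F1 library held 9098072 expected counts, the Cloudman S91 library 7412840 and the 4T1 library 8968897. Marker genes of the labelled tumour types were checked first. All 7 melanocyte markers examined reached FPKM 1 (a read level scaled to transcript length and library depth) in B16-F1 and in Cloudman S91, and 2 of the 7 did so in 4T1. In 4T1 Dct, Tyrp1, Mlana and Sox10 were not listed, Pmel had 0.11 and Mitf had 1.23. Tyr did not separate Cloudman S91 from 4T1, with FPKM 102 in B16-F1 and 4.99 in Cloudman S91, against 5.74 in 4T1. All 7 epithelial markers reached FPKM 1 in 4T1, where their summed FPKM was 2089, against 0.51 in B16-F1 and 2.62 in Cloudman S91. Markers of leukocytes were low in every line, with summed FPKM of 0.61 in B16-F1 and 2.77 in Cloudman S91, against 8.44 in 4T1, nearly all of the last from Cd14. The markers of fibroblasts and endothelium, which also make matrix, are given below, beside matrix genes that a few of these markers moved with.

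The matrix genes were mostly weakly expressed. Of the 74 members, 66 were listed in B16-F1 and 70 in Cloudman S91, against 50 in 4T1, and genes missing from a table were taken as 0. FPKM 1 was reached by 23 members in B16-F1 (31.1%) and 26 in Cloudman S91 (35.1%), against 29 in 4T1 (39.2%). Of all named genes 67.4%, 67.8% and 68.0% did so in the same lines. In all, 25 members reached FPKM 10 in at least 1 line, 17 peaked between 1 and 10, and 32 stayed below 1 everywhere. The members that were expressed in 4T1 were expressed more strongly. Their median was FPKM 6.36 in B16-F1 and 12.0 in Cloudman S91, against 27.6 in 4T1, beside medians of 14.0, 13.0 and 13.4 over all genes at FPKM 1 or more in those lines. Together the members took up 0.281% of all expected counts in B16-F1 (Wilson 95% interval 0.277 to 0.284) and 0.488% in Cloudman S91 (0.483 to 0.493), against 0.729% in 4T1 (0.723 to 0.734). As a share of the summed FPKM, in which long genes weigh no more than short ones, they held 0.144%, 0.225% and 0.223%. The gap between Cloudman S91 and 4T1 was thus seen in the share of counts and not in the share of summed FPKM. The summed FPKM of the members itself was 637.2 in B16-F1 and 936.8 in Cloudman S91, against 1226 in 4T1. In such bulk samples fewer cells of a type and less RNA per cell cannot be told apart.

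**Figure D1:**
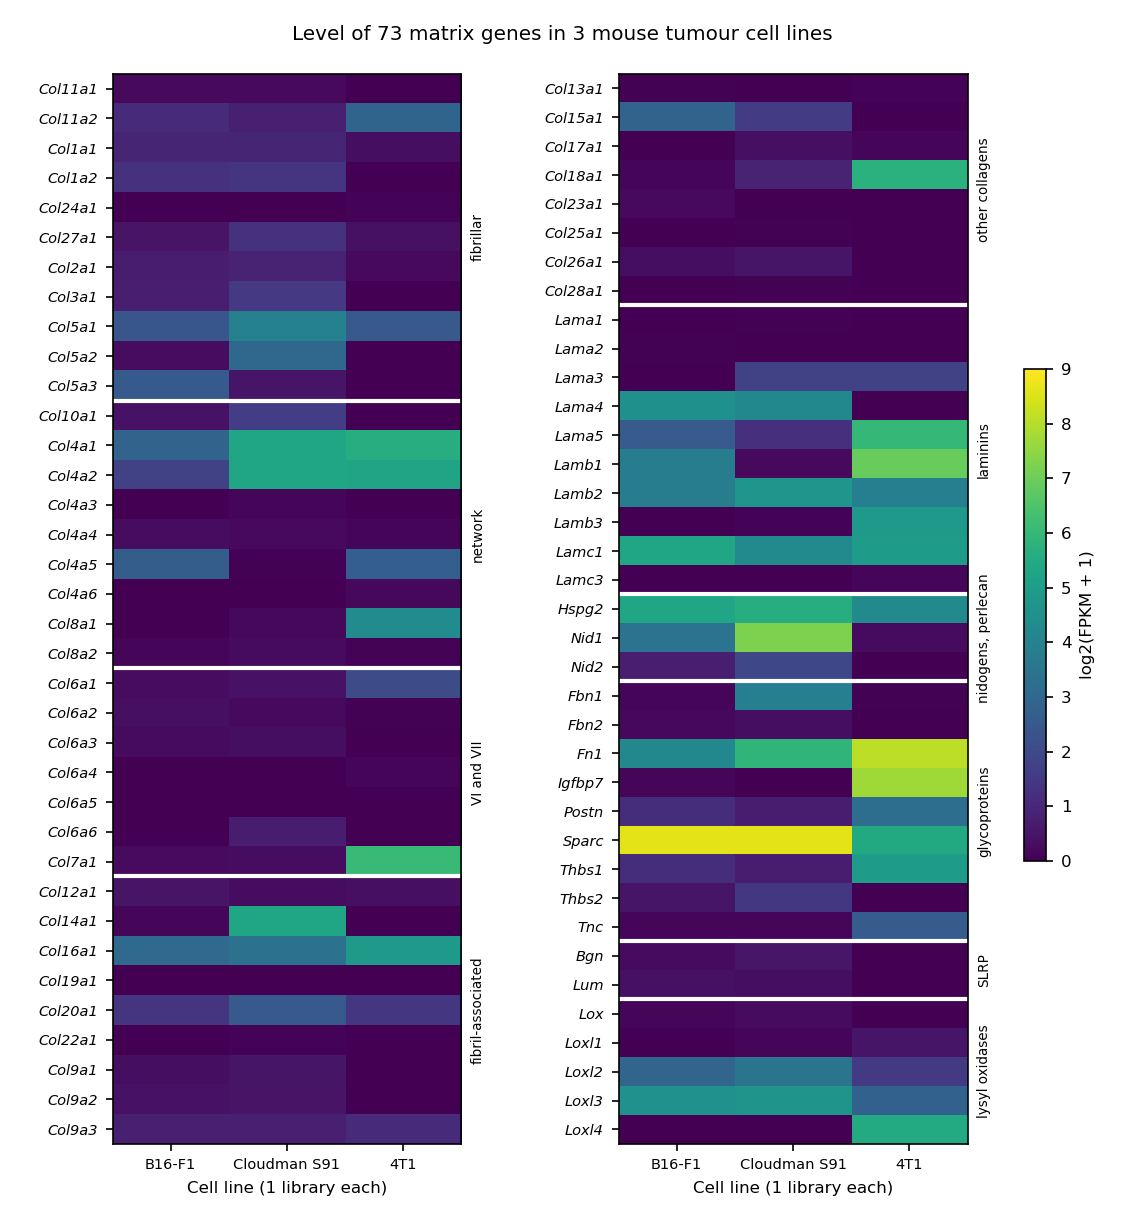
The heat map shows the level of 73 matrix genes as log2(FPKM + 1) in the B16-F1, Cloudman S91 and 4T1 libraries (columns), grouped by class; SLRP stands for small leucine-rich proteoglycans. Most fields are dark, Sparc is bright in both melanoma lines, and Fn1, Igfbp7, Lamb1 and Col7a1 are bright in 4T1.

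Lines were compared in pairs by a rule of size, since 1 library per line allows no test. A gene was called when its log2(FPKM + 1) differed by at least 2, which is 4-fold on that scale, counting the genes with FPKM 1 or more in either line. For B16-F1 against 4T1, 34 members could be compared, and 5 were called higher and 15 called lower in B16-F1. Over all 11547 genes compared, 6.31% were called higher and 7.43% lower in B16-F1. For Cloudman S91 against 4T1, 41 members were compared, and 6 were called higher and 15 lower in Cloudman S91, against backgrounds of 7.47% higher and 8.01% lower. Values were also rescaled to TPM, which sum to the same total in each library. On that scale 14 members were called higher and 14 lower in Cloudman S91 than in 4T1. Over all 12319 genes compared in TPM, 1414 were called higher and 945 lower in Cloudman S91. The members were thus evenly split where the calls of all genes leaned towards Cloudman S91. The melanoma lines differed less from each other. There 32 members were compared, and 3 were called higher and 6 lower in B16-F1 than in Cloudman S91, against backgrounds of 2.33% and 3.19%.

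The shares of members called were thus above the background in each pair, 14.7% higher and 44.1% lower for B16-F1 against 4T1, 14.6% higher and 36.6% lower for Cloudman S91 against 4T1, and 9.38% higher and 18.8% lower for B16-F1 against Cloudman S91. These shares are over members that reached FPKM 1 in either line, which a gene expressed in 1 line alone passes only through that line. The median difference of the members compared on the log2(FPKM + 1) scale was -0.65 for B16-F1 minus Cloudman S91, beside 0.14 over all genes compared. It was -1.78 (all genes 0.03) when 4T1 was taken from B16-F1, and 0.03 (all genes -0.14) when 4T1 was taken from Cloudman S91. The direction of the last value is not settled, since it was -1.77 with an FPKM minimum of 5 and 1.02 in TPM. That of B16-F1 against 4T1 was 0.03 with no minimum. Over all 74 members, silent ones included, the medians were -0.06, 0.02 and 0.09. Members differed in both directions, so a median near 0 does not show that they were alike. The 3 comparisons share libraries and do not count as independent of each other.

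**Figure D2:**
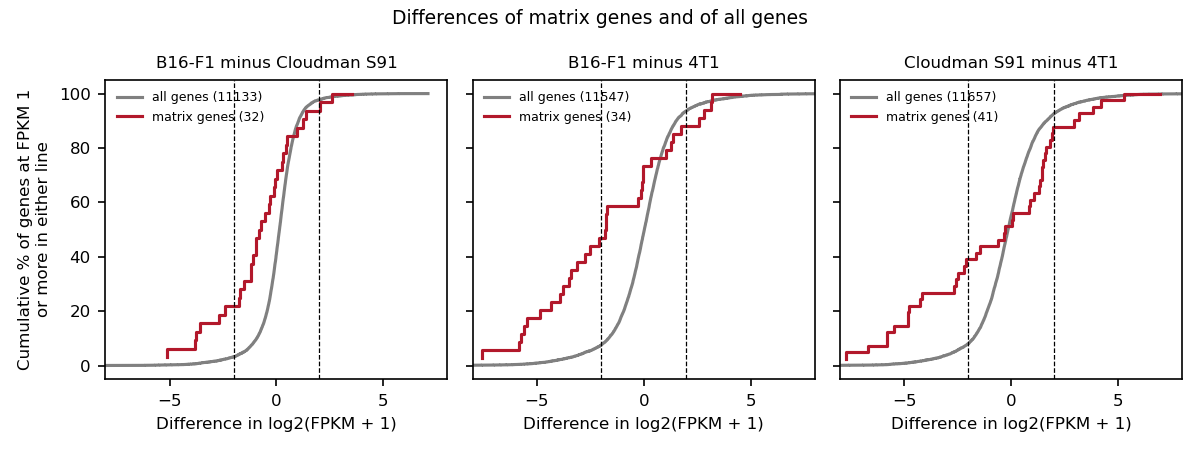
Each panel plots the cumulative percent of genes against the difference in log2(FPKM + 1) for 1 pair of lines, for the matrix genes (red) and all genes (grey) at FPKM 1 or more in either line, with dashed lines at -2 and 2. The red curves leave the grey ones most on the left, where 15 matrix genes are called lower in B16-F1 than in 4T1, 15 lower in Cloudman S91 than in 4T1 and 6 lower in B16-F1 than in Cloudman S91.

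Collagen IV, the network-forming collagen of basement membranes, separated B16-F1 from the other lines. Its main chains are encoded by Col4a1 (chromosome 8, 11198423 to 11312889) and Col4a2 (chromosome 8, 11312805 to 11449287), which lie head to head and are transcribed in opposite directions. The RefSeq promoter windows of the pair, 250 bases before to 50 after the start of each gene on GRCm38.p6, are shown because both genes were called in the same comparisons and share this stretch. The windows overlap by 78 bases (chr8:11312777-11312854), and the start sites they use lie 21 bases apart. The start used for Col4a1 is 11312826, which lies inside the gene span given above and not at its end. Capitals mark matches to motifs searched on both strands, here only the GC box GGGCGG, or CCGCCC when read on the other strand.
Col4a1 (chr8:11312777-11313076, minus strand): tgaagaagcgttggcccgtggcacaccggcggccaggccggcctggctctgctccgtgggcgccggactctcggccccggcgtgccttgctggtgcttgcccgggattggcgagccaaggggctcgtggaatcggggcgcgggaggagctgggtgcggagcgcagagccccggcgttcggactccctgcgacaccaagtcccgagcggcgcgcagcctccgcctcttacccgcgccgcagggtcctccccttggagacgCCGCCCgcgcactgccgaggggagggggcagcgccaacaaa
Col4a2 (chr8:11312555-11312854, plus strand): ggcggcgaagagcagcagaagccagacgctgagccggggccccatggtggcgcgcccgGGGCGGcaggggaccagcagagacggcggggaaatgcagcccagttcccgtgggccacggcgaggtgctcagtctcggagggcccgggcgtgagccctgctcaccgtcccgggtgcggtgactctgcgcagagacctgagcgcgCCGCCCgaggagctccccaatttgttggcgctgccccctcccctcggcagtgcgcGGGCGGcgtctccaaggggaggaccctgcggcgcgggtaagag

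The GC box after the start site in either window is the same stretch, chr8:11312812-11312817, read on opposite strands. The Col4a1 window holds 37 CpG dinucleotides and the Col4a2 window 33, against a median of 7 over the 32851 windows of all genes. Col4a1 had FPKM 6.36 in B16-F1 and 38.0 in Cloudman S91, against 47.6 in 4T1. Col4a2 had 2.38 in B16-F1 and 39.2 in Cloudman S91, against 37.0 in 4T1. Both were thus low in B16-F1 and high in the other lines. Col4a1 was 5.97-fold lower in B16-F1 than in Cloudman S91 (95% interval 5.35 to 6.69) and 7.48-fold lower than in 4T1 (6.72 to 8.35). For Col4a2 the folds were 16.5 (13.9 to 19.7) and 15.5 (13.1 to 18.6), so this chain differed more than its partner. The ratio of Col4a1 to Col4a2 was 2.67 in B16-F1 (2.20 to 3.27) and 0.969 in Cloudman S91 (0.908 to 1.03), against 1.29 in 4T1 (1.22 to 1.36). Between Cloudman S91 and 4T1 neither gene was called, with differences of -0.32 and 0.08.

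The other collagen IV chains, used in specialised basement membranes such as that of the kidney glomerulus, were low except for Col4a5. Col4a5 (chromosome X, 141475370 to 141689236) had FPKM 5.32 in B16-F1 and 0.04 in Cloudman S91 (2 counts), against 5.51 in 4T1. It was 133-fold higher in B16-F1 than in Cloudman S91 (36.5 to 1103), and 138-fold lower in Cloudman S91 than in 4T1 (37.8 to 1142). B16-F1 and 4T1 were close for this chain, 4T1 being 1.04 times as high (0.882 to 1.22). The line with little Col4a5 is therefore not the line with little Col4a1 and Col4a2. Col4a3, Col4a4 and Col4a6 stayed at or below 0.23 in every line. Among the other network collagens, Col8a1, a chain of vessel and corneal matrix, had 0.02 in B16-F1 (1 count) and 0.13 in Cloudman S91 (5 counts), against 19.4 in 4T1. It was 968-fold lower in B16-F1 than in 4T1 (173 to 38257) and 149-fold lower in Cloudman S91 than in 4T1 (63.5 to 460). Col10a1, known from hypertrophic cartilage, had 0.36 in B16-F1 and 2.10 in Cloudman S91 and was not listed in 4T1. Col8a2 stayed at or below 0.19.

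Laminin chains differed in kind more than in presence. Each line expressed alpha, beta and gamma chains, but the leading alpha and beta chains depended on the line. In B16-F1 the summed FPKM was 26.9 for alpha chains and 25.2 for beta chains. In Cloudman S91 the sums were 21.2 and 25.4, and in 4T1 they were 65.2 and 160. Lama4, the alpha chain of vessel and mesenchymal basement membranes, made up 81.2% of the alpha sum in B16-F1 and 82.6% in Cloudman S91. In 4T1 Lama5, the broadly used epithelial alpha chain, made up 96.5%.

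Lama4 (chromosome 10, 38965515 to 39110188) had FPKM 21.8 in B16-F1 and 17.5 in Cloudman S91 and was not listed in 4T1. It was at least 395-fold higher in B16-F1 than in 4T1 and at least 317-fold higher in Cloudman S91 than in 4T1, with 3 counts taken as the limit for 4T1. Lama5 had 5.0 in B16-F1 and 1.29 in Cloudman S91, against 62.9 in 4T1. It was 12.6-fold lower in B16-F1 than in 4T1 (11.5 to 13.8) and 48.7-fold lower in Cloudman S91 than in 4T1 (40.3 to 59.4). The melanoma lines and 4T1 thus led with different alpha chains. Lama3, the alpha chain of the laminin that hemidesmosomes bind, had 0.01 in B16-F1 (1 count) and 2.37 in Cloudman S91, against 2.31 in 4T1. Lama3 was 237-fold lower in B16-F1 than in Cloudman S91 (42.0 to 9412) and 231-fold lower than in 4T1 (41.0 to 9166). With differences of -1.74 and -1.71 it missed the size rule and was not called in any pair. Lama1 and Lama2 had at most 0.03.

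Among the beta chains, Lamb1 (chromosome 12, 31265146 to 31329644) was called in all 3 pairs. It had FPKM 12.6 in B16-F1 and 0.16 in Cloudman S91 (7 counts), against 118 in 4T1. It was 78.6-fold higher in B16-F1 than in Cloudman S91 (37.9 to 196), 9.38-fold lower in B16-F1 than in 4T1 (8.65 to 10.2) and 737-fold lower in Cloudman S91 than in 4T1 (358 to 1835). Cloudman S91 was left with Lamb2, a beta chain of synaptic and muscle basement membranes, as 99.1% of its beta sum. Lamb2 had 12.6 in B16-F1 and 25.2 in Cloudman S91, against 13.7 in 4T1, and was not called. Its listed length differs 1.48-fold between the tables. At a common length the ratio of 4T1 to B16-F1 was 1.55 in place of 1.09, and that of Cloudman S91 to 4T1 was 1.24 in place of 1.84.

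Lamb3 encodes the beta partner of Lama3 in the epithelial laminin of hemidesmosomes, and it was called lower in both melanoma lines than in 4T1. Lamb3 had FPKM 0.07 in Cloudman S91 (2 counts) and 27.9 in 4T1 and was not listed in B16-F1, which was at least 338-fold lower than 4T1. Cloudman S91 was 399-fold lower than 4T1 for Lamb3 (110 to 3302). In 4T1 its level was well above that of Lama3, at 27.9 against 2.31. Lamc1, the gamma chain of most laminins, was present in every line, at 37.9 in B16-F1 and 18.6 in Cloudman S91, against 29.4 in 4T1, and was not called in any pair. Lamc3 had at most 0.08.

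**Figure D3:**
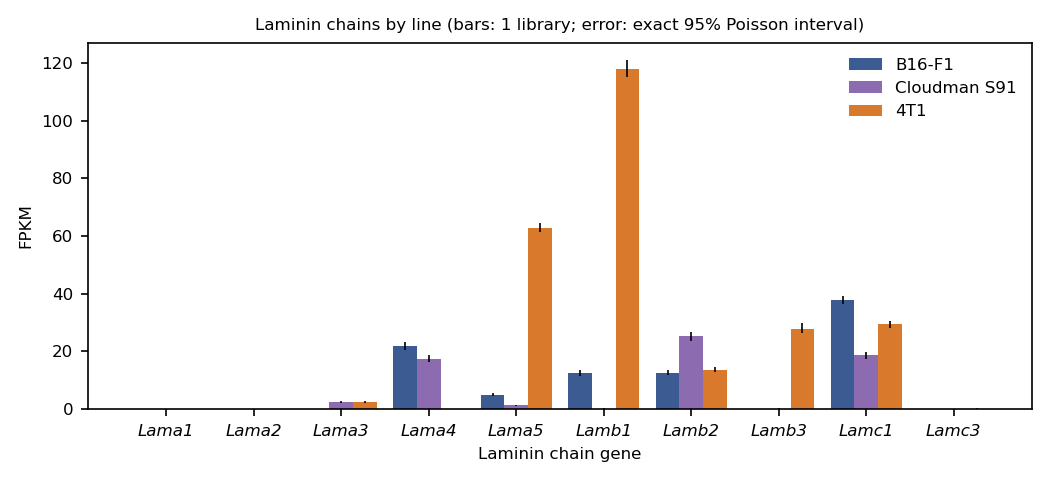
The bars give the FPKM of 10 laminin chain genes in the B16-F1, Cloudman S91 and 4T1 libraries, with exact 95% Poisson intervals as error bars. Lama4 stands only in the melanoma lines, Lama5, Lamb1 and Lamb3 are highest in 4T1, and Lamc1 is present in each line.

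The linkers of the basement membrane had another order among the lines. Nid1 (chromosome 13, 13437602 to 13512275) encodes nidogen-1, which joins laminin to collagen IV. It had FPKM 9.70 in B16-F1 and 149 in Cloudman S91, against 0.20 in 4T1 (11 counts). Nid1 was 15.4-fold lower in B16-F1 than in Cloudman S91 (14.0 to 16.9), 48.5-fold higher in B16-F1 than in 4T1 (26.9 to 97.8) and 746-fold higher in Cloudman S91 than in 4T1 (417 to 1495). All 3 lines were therefore separated, and 4T1, with the highest alpha and beta laminin sums and Col4a1 and Col4a2 levels close to those of Cloudman S91, had the least nidogen. Nid2 had 0.68 in B16-F1 and 2.85 in Cloudman S91 and was not listed in 4T1. Hspg2, which encodes perlecan, had 39.0 in B16-F1 and 48.1 in Cloudman S91, against 18.7 in 4T1, and it was not called, with differences of 1.02 for B16-F1 minus 4T1 and of 1.32 with Cloudman S91 in place of B16-F1.

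The windows before the start of 4 genes that were called in 2 or 3 of the comparisons are shown as examples of a laminin, a linker, a collagen and a glycoprotein gene, again from RefSeq on GRCm38.p6. Besides Nid1 and Lamb1 they are those of Col7a1 and Igfbp7, described next. The start used for Lamb1 is 31265293, which lies inside the gene span given above. Capitals mark the GC box GGGCGG and, in Lamb1, CATGTG, the M-box core of melanocyte genes.
Nid1 (chr13:13437352-13437651, plus strand): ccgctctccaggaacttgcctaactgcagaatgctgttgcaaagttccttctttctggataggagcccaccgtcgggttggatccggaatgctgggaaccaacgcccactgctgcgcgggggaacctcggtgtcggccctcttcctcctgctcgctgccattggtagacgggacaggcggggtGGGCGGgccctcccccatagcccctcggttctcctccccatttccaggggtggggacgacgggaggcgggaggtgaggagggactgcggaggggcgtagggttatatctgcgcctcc
Lamb1 (chr12:31265043-31265342, plus strand): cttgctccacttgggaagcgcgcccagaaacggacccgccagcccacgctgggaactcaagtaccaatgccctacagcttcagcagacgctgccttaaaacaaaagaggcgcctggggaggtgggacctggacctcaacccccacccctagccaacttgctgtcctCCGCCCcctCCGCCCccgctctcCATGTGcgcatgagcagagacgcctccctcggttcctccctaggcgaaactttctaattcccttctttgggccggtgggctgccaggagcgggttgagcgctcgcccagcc
Col7a1 (chr9:108953336-108953635, plus strand): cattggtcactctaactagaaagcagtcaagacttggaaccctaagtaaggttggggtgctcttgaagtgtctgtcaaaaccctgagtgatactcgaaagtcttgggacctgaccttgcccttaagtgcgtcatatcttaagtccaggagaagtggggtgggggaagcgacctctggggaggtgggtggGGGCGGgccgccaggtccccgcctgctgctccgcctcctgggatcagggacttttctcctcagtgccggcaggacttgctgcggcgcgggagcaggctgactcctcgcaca
Igfbp7 (chr5:77407996-77408295, minus strand): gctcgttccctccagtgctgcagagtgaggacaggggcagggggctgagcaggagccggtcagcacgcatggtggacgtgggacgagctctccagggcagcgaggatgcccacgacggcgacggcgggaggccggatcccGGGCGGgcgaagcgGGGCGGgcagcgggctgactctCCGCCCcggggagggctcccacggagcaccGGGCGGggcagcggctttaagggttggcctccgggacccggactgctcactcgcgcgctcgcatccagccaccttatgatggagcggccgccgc

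Each of these windows held a GC box, and the Igfbp7 window held 4. A window was available for 50 of the 74 members, which have 56 windows. A GC box was present in 34 of the 56 (60.7%), against 35.7% of all 32851 windows. The member windows also held more CpG, with a median of 10 against 7 over all windows. Some member windows overlap and hold the same GC box, as those of Col4a1 and Col4a2 do. TATAAA was present in 9 member windows (16.1%, against 13.6%), CATGTG in 4 (7.14%, against 14.2%) and the AP-1 motif TGANTCA in 1 (1.79%, against 7.81%), that of Col6a1. Overlapping matches were counted separately. These matches describe the letters in the windows and show nothing about binding.

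Collagen VII forms the fibrils that anchor the basement membrane of skin to the dermis. Its gene Col7a1 (chromosome 9, 108953586 to 108984875) had FPKM 0.20 in B16-F1 (17 counts) and 0.23 in Cloudman S91 (16 counts), against 66.9 in 4T1. It was 335-fold lower in B16-F1 than in 4T1 (209 to 575) and 291-fold lower in Cloudman S91 than in 4T1 (179 to 510). Col18a1, whose product is the source of the fragment endostatin, had 0.11 in B16-F1 and 0.86 in Cloudman S91, against 52.3 in 4T1, so that B16-F1 was 475-fold lower than 4T1 (203 to 1465) and Cloudman S91 60.8-fold lower (42.9 to 89.1). Its close relative Col15a1 had the opposite order, with 6.28 in B16-F1 and 2.03 in Cloudman S91, against 0.02 in 4T1 (1 count). Col15a1 was called only for B16-F1 against 4T1, at 314-fold higher (55.9 to 12445). For Cloudman S91 minus 4T1 its difference was 1.57. The chains of collagen VI, a microfibril collagen, were low throughout. Col6a1 had 0.22 in B16-F1 and 0.34 in Cloudman S91, against 3.19 in 4T1, while Col6a2, Col6a3, Col6a4, Col6a5 and Col6a6 stayed at or below 0.59.

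Fibrillar collagens form the bulk of connective tissue. Of the 11 genes of the class, 4 reached FPKM 1 in B16-F1 and 5 in Cloudman S91, against 2 in 4T1, and Col5a1 in Cloudman S91 was the only value above 10. The chains of collagen I, Col1a1 and Col1a2, had FPKM 0.89 and 1.44 in B16-F1 and 0.91 and 1.59 in Cloudman S91. In 4T1, Col1a1 had 0.25 and Col1a2 was not listed. Col3a1 had 0.68 in B16-F1 and 1.81 in Cloudman S91 and was not listed in 4T1. Collagen V, which starts fibril assembly, led the class in the melanoma lines, and its chains differed in which line they marked. Col5a1 had 4.36 in B16-F1 and 14.4 in Cloudman S91, against 4.65 in 4T1, and was not called. Col5a2 had 0.23 in B16-F1 and 6.97 in Cloudman S91, against 0.02 in 4T1 (1 count). It marked Cloudman S91, while Col5a3 marked B16-F1. Col5a2 was 30.3-fold lower in B16-F1 than in Cloudman S91 (17.8 to 56.0), and Col5a3 was 11.7-fold higher (7.36 to 19.8). Col5a3 had 4.92 in B16-F1 and 0.42 in Cloudman S91 and was not listed in 4T1. Col11a2, a cartilage chain, had 1.12 in B16-F1 and 0.75 in Cloudman S91, against 6.43 in 4T1, and was called lower in Cloudman S91 than in 4T1. Col27a1 reached 1.46 in Cloudman S91, and Col2a1, Col11a1 and Col24a1 stayed at or below 0.83.

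Among the collagens that decorate fibrils, Col14a1 (chromosome 15, 55307644 to 55520803) marked Cloudman S91. It had FPKM 0.10 in B16-F1 (6 counts) and 37.8 in Cloudman S91 (1801 counts) and was not listed in 4T1. It was 378-fold lower in B16-F1 than in Cloudman S91 (173 to 1031) and at least 731-fold higher in Cloudman S91 than in 4T1. Col16a1 was expressed in every line, at 7.35 in B16-F1 and 9.48 in Cloudman S91, against 27.6 in 4T1, and was not called. Col20a1 had 1.65 in B16-F1 and 4.69 in Cloudman S91, against 1.67 in 4T1, but its listed length differs 2.56-fold between tables. At a common length Cloudman S91 was 6.93-fold above 4T1 for Col20a1, in place of 2.81-fold. The ratio of 4T1 to B16-F1 was then 0.390 in place of 1.01, so whether these lines differed depended on the length used. Col9a3 reached 1.12 in 4T1. Col9a1, Col9a2, Col12a1, Col19a1 and Col22a1 stayed at or below 0.41, as did Col13a1, Col17a1, Col23a1, Col25a1, Col26a1 and Col28a1 of the remaining types.

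Fibrillin-1, the core of elastic microfibrils, was also highest in Cloudman S91. Its gene Fbn1 (chromosome 2, 125300594 to 125506485) had FPKM 0.10 in B16-F1 (9 counts) and 13.9 in Cloudman S91, against 0.03 in 4T1 (3 counts). It was 139-fold lower in B16-F1 than in Cloudman S91 (72.8 to 304) and 463-fold higher in Cloudman S91 than in 4T1 (158 to 2247). Fbn2 stayed at or below 0.25. Some fibroblast markers moved with these genes. Of the 9 listed fibroblast markers, 2 reached FPKM 1 in Cloudman S91 and none did in B16-F1 or 4T1. Pdgfra had 0.17 in B16-F1 and 15.6 in Cloudman S91, against 0.96 in 4T1, and Pdgfrb had 0.25 in B16-F1 and 2.04 in Cloudman S91 and was not listed in 4T1. The summed FPKM of the list was 0.88 in B16-F1 and 17.8 in Cloudman S91, against 1.17 in 4T1. Of the other markers on the list, Thy1, Twist2, Fap, Pi16 and Dpt were not listed in Cloudman S91, Dcn had 0.08 and Acta2 had 0.11. Thy1, Pi16 and Dpt were not listed in any line. The endothelial markers summed to 1.17 in B16-F1 and 11.8 in Cloudman S91, against 0.21 in 4T1. Vwf alone had 11.6 in Cloudman S91, where Kdr was not listed and Pecam1 had 0.05. The part of these markers in the high Col14a1, Fbn1, Nid1 and Col5a2 of Cloudman S91 was not tested.

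The matrix glycoproteins were the most abundant members. Sparc, a collagen-binding glycoprotein of basement membranes (chromosome 11, 55394159 to 55420080), led both melanoma lines. It had FPKM 399 in B16-F1 and 392 in Cloudman S91, against 42.8 in 4T1. The melanoma lines were alike for Sparc, with a ratio of 1.02 (0.987 to 1.05), and it was 9.33-fold higher in B16-F1 than in 4T1 (8.74 to 9.98) and 9.16-fold higher in Cloudman S91 than in 4T1 (8.57 to 9.80). Fn1, which encodes fibronectin, the main adhesive protein of provisional matrix (chromosome 1, 71585473 to 71653280), led 4T1. It had 17.3 in B16-F1 and 58.7 in Cloudman S91, against 274 in 4T1. Fn1 was 15.8-fold lower in B16-F1 than in 4T1 (14.9 to 16.7) and 4.67-fold lower in Cloudman S91 than in 4T1 (4.50 to 4.84). Between the melanoma lines its difference was -1.70, short of a call.

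Igfbp7, which encodes a secreted glycoprotein of the vessel wall matrix that binds growth factors (chromosome 5, 77349240 to 77408045), had FPKM 0.10 in B16-F1 (1 count) and 207 in 4T1 (1955 counts) and was not listed in Cloudman S91. It was 2071-fold lower in B16-F1 than in 4T1, with a wide interval of 371 to 81837, and at least 573-fold lower in Cloudman S91 than in 4T1. Its difference was the largest of any member for B16-F1 against 4T1 and for Cloudman S91 against 4T1. Thbs1, a thrombospondin that activates latent TGF-beta, had 1.25 in B16-F1 and 0.63 in Cloudman S91, against 30.0 in 4T1, a fold of 24.0 lower in B16-F1 (18.7 to 31.2) and 47.6 lower in Cloudman S91 (32.6 to 72.4). Thbs2 had 0.41 in B16-F1 and 1.77 in Cloudman S91 and was not listed in 4T1, so the thrombospondins did not share an order. Tenascin-C and periostin, glycoproteins of wound and tumour stroma, were also highest in 4T1. Tnc had 0.09 in B16-F1 and 0.11 in Cloudman S91, against 5.16 in 4T1, and Postn had 1.25 in B16-F1 and 0.59 in Cloudman S91, against 8.43 in 4T1. Both were called lower in each melanoma line than in 4T1. The small leucine-rich proteoglycans Bgn and Lum, abundant in connective tissue, stayed at or below 0.45 and were not listed in 4T1.

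Lysyl oxidases crosslink collagen and elastin, and the members expressed differed between 4T1 and the melanoma lines. Loxl4 (chromosome 19, 42592279 to 42612806) had FPKM 0.02 in B16-F1 (1 count) and 0.02 in Cloudman S91 (1 count), against 43.9 in 4T1. By the listed FPKM, which is rounded, it was 2196-fold lower in either melanoma line than in 4T1, each with an interval of 394 to 86758. From counts at a common length the folds were 2153 for B16-F1 and 1754 for Cloudman S91. Loxl3 had 22.5 in B16-F1 and 24.0 in Cloudman S91, against 5.95 in 4T1, and Loxl2 had 6.61 in B16-F1 and 10.1 in Cloudman S91, against 1.90 in 4T1. Both were lower in 4T1 but missed the size rule, with differences of 1.76 and 1.39 for B16-F1 minus 4T1, and of 1.85 and 1.94 when the first line was Cloudman S91. The expected counts of Loxl2 are not whole numbers in any table, and those of Col11a2, Col20a1, Lamb2 and Nid1 are not whole in 1 or 2 tables. Lox itself had at most 0.19 and Loxl1 at most 0.41. Summed over the family the level was 29.2 in B16-F1 and 34.5 in Cloudman S91, against 52.2 in 4T1.

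**Figure D4:**
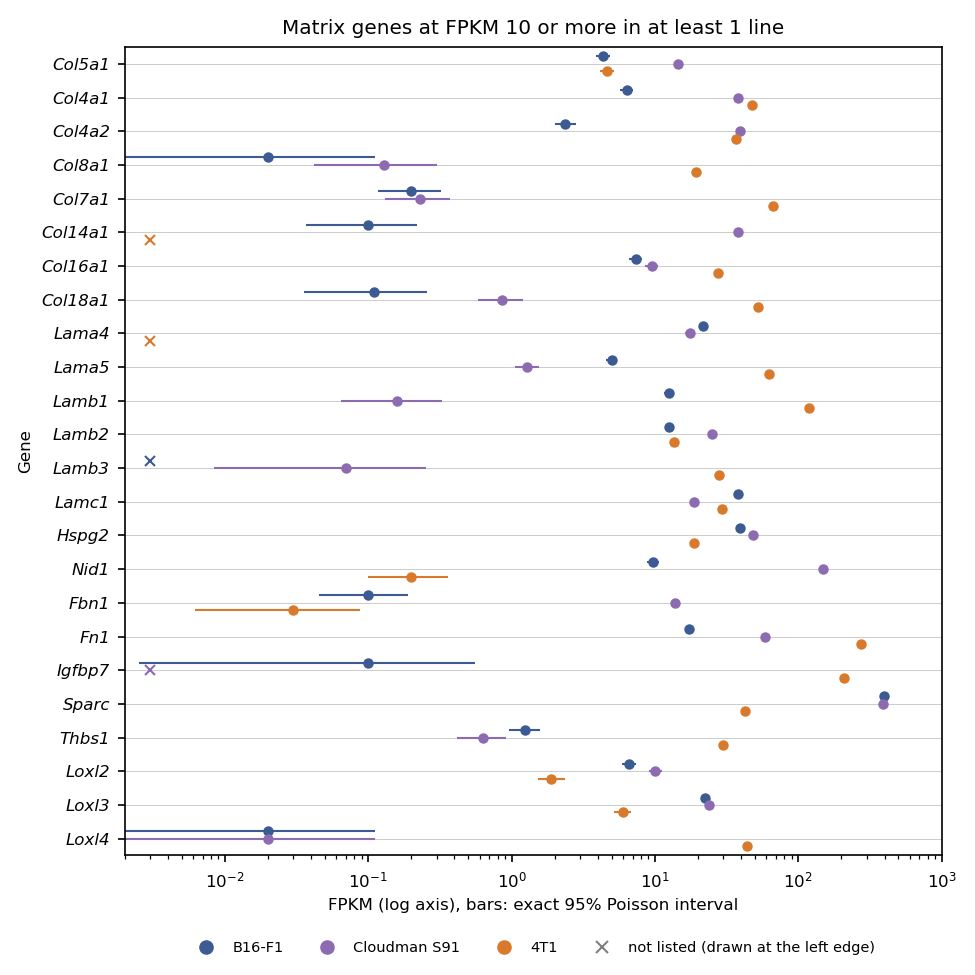
The points give the FPKM on a log axis of 24 matrix genes that reached FPKM 10 in some line, with exact 95% Poisson intervals, for B16-F1, Cloudman S91 and 4T1; crosses mark genes not listed. The lines lie close for Lamc1, Lamb2 and Hspg2, and they lie far apart for Igfbp7, Loxl4 and Col7a1, where 4T1 is highest, and for Col14a1, Fbn1 and Nid1, where Cloudman S91 is highest.

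Several members are neighbours on a chromosome, a feature that the choice by symbol did not use. Described here are 8 pairs that lie within 150 kb of each other. Of these, Col4a1 and Col4a2 were the only pair in which both genes reached FPKM 1 in each line. Col3a1 and Col5a2 lie 24624 bases apart on chromosome 1, and both had their highest level in Cloudman S91, at 1.81 and 6.97. Col4a6 and Col4a5 are separated by 1274 bases on the X chromosome and did not move together, since Col4a6 stayed at or below 0.15 where Col4a5 had 5.32 in B16-F1 and 5.51 in 4T1. The cluster of Col6a6, Col6a5 and Col6a4 on chromosome 9 stayed at or below 0.59 in every line. Col6a2 and Col6a1, 85161 bases apart on chromosome 10, differed in 4T1, at 0.03 and 3.19. The pairs of Col4a4 with Col4a3 and of Col9a1 with Col19a1 stayed at or below 0.41 in every line.

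**Figure D5:**
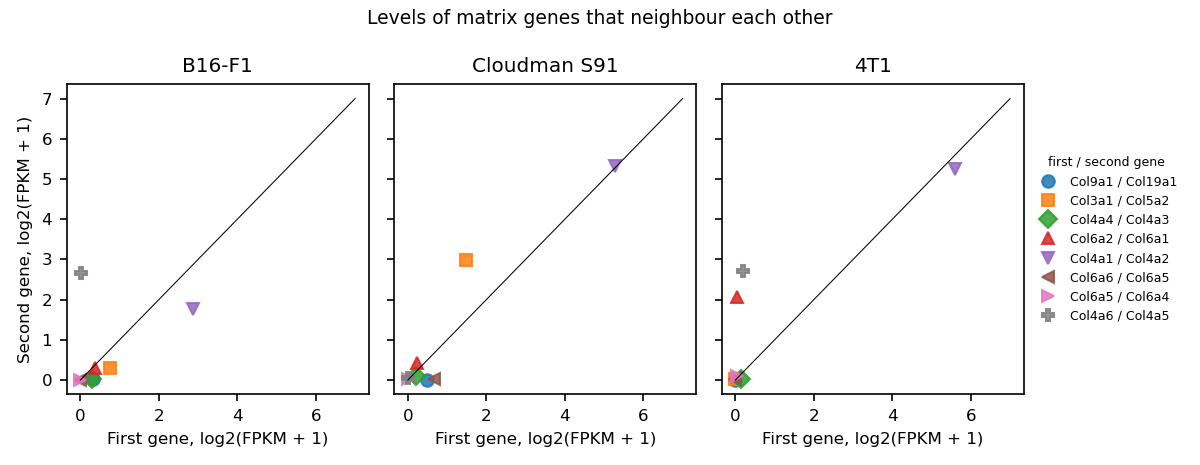
Each point is 1 of 8 neighbouring pairs, with the level of its first gene on the horizontal axis and of its second on the vertical axis, both as log2(FPKM + 1), in B16-F1, Cloudman S91 and 4T1. The Col4a1 and Col4a2 pair lies farther from the diagonal in B16-F1 than in Cloudman S91 or 4T1, and the Col4a6 and Col4a5 pair lies along the vertical axis in B16-F1 and 4T1.

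Most enzymes that modify and fold collagen were expressed in each line. Of the 26 genes on this list, 19 reached FPKM 1 in B16-F1 and 19 in Cloudman S91, against 20 in 4T1. Calls were 1 higher and 2 lower of 20 compared for B16-F1 against Cloudman S91, 3 higher and 2 lower of 21 for B16-F1 against 4T1, and 3 higher and 3 lower of 21 for Cloudman S91 against 4T1. Over all genes the shares called higher and lower in the same order of comparisons were 2.33% and 3.19%, 6.31% and 7.43%, and 7.47% and 8.01%. The list lay above these shares in each direction, but on 1 to 3 calls each, too few to set it apart. The median differences over those compared were 0.36, 0.78 and 0.07. The collagen chaperone Serpinh1 had FPKM 401 in B16-F1 and 308 in Cloudman S91, against 279 in 4T1. Plod2, a lysyl hydroxylase that sets the type of crosslink, had 31.1 in B16-F1 and 0.30 in Cloudman S91, against 17.7 in 4T1, and was 104-fold higher in B16-F1 than in Cloudman S91 (52.4 to 241). Fkbp10, a chaperone for procollagen, had 3.47 in B16-F1 and 41.2 in Cloudman S91 and was not listed in 4T1. Plod1, another lysyl hydroxylase, had 51.5 in B16-F1 and 23.1 in Cloudman S91, against 5.25 in 4T1, and the prolyl hydroxylase gene P3h2 had 10.4 in B16-F1 and 13.4 in Cloudman S91, against 1.58 in 4T1. Bmp1, the protease that trims procollagen ends, had 4.39 in B16-F1 and 10.7 in Cloudman S91, against 83.0 in 4T1, and Pcolce2, an enhancer of that protease, had 0.24 in B16-F1 and 25.1 in 4T1 and was not listed in Cloudman S91.

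Matrix receptors, like all genes, were called less often between the melanoma lines than in the comparisons with 4T1. Of 29 genes listed, calls were 4 higher and 7 lower of 24 compared for B16-F1 against 4T1, 4 higher and 5 lower of 22 for Cloudman S91 against 4T1, and 1 higher and 1 lower of 22 for B16-F1 against Cloudman S91. All genes gave 6.31% higher and 7.43% lower, 7.47% and 8.01%, and 2.33% and 3.19% in these comparisons. The medians were 0.01, -0.16 and 0.12. Itga3, the integrin chain that binds epithelial laminins, had FPKM 0.09 in B16-F1 and 269 in 4T1 and was not listed in Cloudman S91. Its fold was 2984 lower in B16-F1 than in 4T1 (1165 to 10952) and at least 3197 lower in Cloudman S91 than in 4T1. Itgb4, the hemidesmosome integrin chain, had 0.44 in B16-F1 and 1.40 in Cloudman S91, against 22.8 in 4T1. In the other direction, Itga4, an integrin chain that binds fibronectin, had 22.8 in B16-F1 and 17.0 in Cloudman S91, against 0.25 in 4T1, and Dag1, which encodes the laminin receptor dystroglycan, had 80.1 in B16-F1 and 82.3 in Cloudman S91, against 17.2 in 4T1. Itga6, a laminin-binding integrin chain, was called between the melanoma lines, at 24.1 in B16-F1 against 3.09 in Cloudman S91, and Sdc3, a syndecan, had 21.9 in Cloudman S91 against 3.13 in 4T1.

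Of 40 further matrix genes, 37 were in a table. Calls were 4 lower and none higher of 17 compared for B16-F1 against Cloudman S91, 2 higher and 4 lower of 16 for B16-F1 against 4T1, and 7 higher and 6 lower of 18 for Cloudman S91 against 4T1, with medians of -0.15, -1.10 and 0.39. The shares over all genes were 2.33% higher and 3.19% lower, 6.31% and 7.43%, and 7.47% and 8.01%. The fibulins, which link elastic fibres and basement membranes, did not share an order. Fbln1 had FPKM 77.6 in B16-F1 and 59.9 in Cloudman S91, against 0.10 in 4T1, while Fbln2 had 0.13 in B16-F1 and 0.53 in Cloudman S91, against 122 in 4T1. Fbln5 had 27.6 in B16-F1 and 14.9 in Cloudman S91 and was not listed in 4T1. Efemp1, or fibulin-3, had 10.2 in Cloudman S91 and was not listed in B16-F1 or 4T1, and Efemp2 had 9.70 in B16-F1 and 12.2 in Cloudman S91, against 39.5 in 4T1, and was not called. Tinagl1 had 3.99 in B16-F1 and 1.84 in Cloudman S91, against 111 in 4T1. Ltbp1, which encodes a binding protein of latent TGF-beta in the matrix, had 0.11 in B16-F1 and 0.87 in Cloudman S91, against 31.9 in 4T1. Cloudman S91 exceeded B16-F1 for Npnt, an integrin ligand of basement membranes (3.66 in B16-F1 against 55.9 in Cloudman S91), and for Smoc1 (0.06 in B16-F1 against 11.6 in Cloudman S91). Vcan, which encodes the proteoglycan versican, had 18.4 in Cloudman S91 against 0.05 in 4T1.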

How the data were processed

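RNA was sequenced from 1 library per line, made from polyadenylated RNA of frozen cell pellets, per the labels' protocols. The submitters' processing notes name HISAT, StringTie and the mouse build mm10, without versions. Not given in the sources used here are the program that counted reads and the use of strand. The authors deposited an unnormalised expected count, an FPKM value and, as other values, a transcript length for each gene, per the file headers. Rows without a symbol were left out; they held 2.36% of the B16-F1 counts, 2.24% of those of Cloudman S91 and 4.32% of those of 4T1.

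From these, differences in log2(FPKM + 1) were computed in Python 3.11.15 (pandas 2.3.3, scipy 1.17.1), with a pseudocount of 1. Genes at FPKM 1 or more in either line were compared, and a difference of at least 2 was called, so no p-value was computed. Such differences understate the folds of low genes. Intervals are exact 95% intervals from rounded expected counts: Poisson for a level, conditional binomial for a ratio scaled to the FPKM ratio, and Wilson for a share. Reads copied by PCR are not independent molecules, so the intervals are too narrow. The listed FPKM values are rounded, so folds on the lowest values, and their intervals, also carry a rounding error. Against a gene not listed, a fold used 3 counts in that library as a limit. The rule and the intervals were tested on simulated Poisson counts, started from genes with many counts. That test does not cover folds that rest on few counts, copied reads or lengths that differ between tables. Members, lists and alternatives were chosen with earlier results of these data known. A member that is not reported here is part of the counts and sums only. The other members at FPKM 10 or more are described singly, and from each pathway list at most 2 genes per direction and pair, among those called and at FPKM 10 or more, beside Serpinh1, Efemp1 and Efemp2, which were chosen after their values were seen. All 74 members were matched by gene number to RefSeq on GRCm38.p6 (the same primary assembly as mm10), the source of positions and sequences.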

Additional observations from a re-analysis of the deposited data

Results flagged for a closer look

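Rows without a gene symbol took no part in the comparisons, and 2 of them carry an annotation that names a matrix protein and more than 3 counts. In Cloudman S91 an assembled transcript annotated as nidogen (entactin) had FPKM 5.48 from 9.57 expected counts, beside FPKM 149 from 6627.71 counts for Nid1 itself. The counts of Nid1 and of this row are not whole numbers. In 4T1 an assembled transcript had FPKM 59.8 from 375 counts. Its orthology field names collagen type I alpha, while its protein description names AHNAK2, which is no collagen. Col1a1 had FPKM 0.25 in the same table.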

How the results depend on the processing

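No paired analysis was possible because each line has 1 library. Of 87 recomputed values for the counts, medians and summed levels, 63 kept their side or size, 22 moved and 2 changed sign. Of 350 recomputed differences of single called members, 135 moved and 0 changed sign. Settings that change only the FPKM minimum cannot move a single difference, so part of the 350 stayed the same by construction. A pseudocount cannot change a sign, and these members were chosen for a difference of at least 2. The absence of sign changes is therefore no check of them. The cause of the shifts was not tested unless stated. For B16-F1 against Cloudman S91, a pseudocount of 5 left 0 members higher and 3 lower and a median of -0.27, no FPKM minimum gave a median of -0.06, and an 8-fold rule left 1 higher. Over all genes the pseudocount of 5 left 60 higher (259 before) and 113 lower (355 before), and the 8-fold rule left 93 higher. For B16-F1 against 4T1, the median was -2.54 with a pseudocount of 0.1, -0.78 with 5, 0.03 with no minimum, which adds weak members, -2.50 with an FPKM minimum of 5 and -0.81 in TPM. Members higher in B16-F1 numbered 2 with a pseudocount of 5 and 3 by the 8-fold rule. Over all genes 305 and 344 were higher in these settings, against 729 before. For Cloudman S91 against 4T1, 13 members were higher with a pseudocount of 0.1 and 14 in TPM, and the median was -1.77 with a minimum of 5 and 1.02 in TPM. Over all genes 1356 were higher with a pseudocount of 0.1 and 1414 in TPM, against 871 before. TPM also moved the median of all genes, to 0.06, 0.38 and 0.31 for B16-F1 minus Cloudman S91, B16-F1 minus 4T1 and Cloudman S91 minus 4T1, and the share of calls on the higher side to 56.7% (45.9% before) and 59.9% (48.3%) in the comparisons with 4T1. A minimum of 5 left 15 members in B16-F1 and 16 in Cloudman S91. The summed level was 0.147%, 0.231% and 0.235% in B16-F1, Cloudman S91 and 4T1 at a common length, and 0.281%, 0.488% and 0.729% in counts, which weigh long genes more. With 1 to 17 counts behind many low values, their folds are known only within wide intervals.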
